A study of Mus musculus with 4 samples.

Results

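The 47 genes described here encode subunits of respiratory complexes II, III, IV and V and cytochrome c, out of 19939 genes tested on the arrays. A gene was included when a probe set named that gene alone and its symbol was Sdha, Sdhb, Sdhc, Sdhd or Cycs, or began with Uqcr, Atp5, Cox4i, Cox5, Cox6, Cox7 or Cox8. Of the 47 genes, 4 belong to complex II, 8 to complex III, 17 to complex IV, 17 to complex V, and the remaining gene is Cycs. They were read by 69 probe sets, and the probe set with the highest mean over the 4 arrays stands for a gene that has several. No filter on low values was applied, so all 47 were tested. Cox7c, a further subunit of complex IV, was read only by 3 probe sets that also name Gm12338 and is therefore not among the 47.

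RNA came from bone marrow cells labelled CD11b and Gr-1 positive, which the methods of the study describe as isolated by magnetic selection for Ly6G, from wild type (lal+/+) mice and from mice without lysosomal acid lipase (lal-/-). This enzyme, encoded by Lipa, releases cholesterol and fatty acids from lipids in the lysosome, and the cells are called myeloid-derived suppressor cells (MDSCs). All mice were 5 months old and backcrossed for 10 generations onto FVB/N, and 2 arrays (Affymetrix Mouse Gene 1.0 ST) were made for each genotype. The loss of Lipa is present in every cell of a lal-/- mouse, so the MDSCs were not the only cells without the enzyme. How the arrays relate to single mice is not stated, so that SDs and p-values measure only the spread between arrays.

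Complexes II, III and IV pass electrons from succinate and ubiquinol to oxygen in the inner mitochondrial membrane. Cytochrome c carries electrons from complex III to complex IV, complexes III and IV pump protons, and complex V (ATP synthase) uses the returning protons to make ATP. All of complex II and most subunits of the other complexes are encoded in the nucleus, and several subunits of complex IV exist as isoforms used in muscle or testis. Mature granulocytes are known for making most of their ATP by glycolysis.

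Levels are log2 expression values after quantile normalization of the 4 arrays. Differences are log2 fold changes of lal-/- over lal+/+ from limma, with their standard error (SE) and a p-value, Benjamini-Hochberg adjusted across 21789 probe sets with a single gene name. Genes were called higher or lower when the adjusted p was under 0.05 and the fold was at least 2, the thresholds in the methods of the study. An exact two-sided permutation test of 2 arrays against 2 cannot go below p = 0.333, so no single gene could pass such a test. Lipa read 9.50 and 9.05 in lal+/+ MDSCs and 7.37 and 7.49 in lal-/- MDSCs, with a log2 fold change of -1.85 (SE 0.17, adjusted p = 4.17e-04). The genotypes did not overlap for Lipa, in the direction the labels give.

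The arrays also differed in the genes of the cells they held. Of 10 genes listed for the selected cells, 7 were called higher and 1 lower in lal-/- cells, and their summed log2 level was 98.64 to 99.12 on the lal+/+ arrays and 113.92 to 114.00 on the lal-/- arrays. For Ly6g itself the difference was 2.88 (adjusted p = 8.00e-05). The gene called lower was Csf3r, at -1.91 (adjusted p = 1.23e-04), and S100a9 (0.20) and S100a8 (0.05) were not called. Ctsg (3.78), Mpo (3.75) and Elane (2.20), called higher, read only 5.28 to 6.15 on the lal+/+ arrays. For B cells 5 of 7 measured markers were called lower, with summed levels of 62.48 to 63.32 in lal+/+ and 43.62 to 45.53 in lal-/- cells, and Ms4a1 read 5.12 to 5.35 on the lal-/- arrays. For monocytes and macrophages 5 of 8 were called lower, with summed levels of 69.11 to 70.72 and 54.40 to 55.84. For dividing cells 5 of 6 were called higher, with summed levels of 44.61 to 44.98 and 54.70 to 54.74. T and NK cell markers had 1 of 6 called higher, Cd3d, and 3 lower, with summed levels of 49.57 to 49.90 and 45.46 to 45.63. Of 4 measured erythroid markers limma called 0, with summed levels of 29.34 to 29.52 and 28.55 to 29.26. Among them 1, Alas2, was lower by the adjusted p without reaching the fold, at -0.66 (adjusted p = 0.0122), and the others did not pass. In such bulk samples fewer cells of a type and less RNA per cell cannot be told apart, and the part of these shifts in the results below was not tested.

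Of the 47 subunit genes, 5 were called higher in lal-/- MDSCs, beside 7.56% of all genes tested, and these were Cox6b2, Uqcrc1, Uqcr11, Atp5e and Sdhb. limma called 0 lower, beside 3.24% of all genes. The only member with a negative difference at an unadjusted p under 0.05 was Cox6a2. Such members numbered 0 in an ordinary linear model, 2 with an intensity trend and robust variances, and 3 without lal+/+ replicate 1. At an adjusted p under 0.05 without the fold threshold 23 members were higher, beside 19.8% of all genes, and 0 were lower, beside 9.85%. The difference was positive in 39 members and negative in 8, beside 11910 and 8029 of all 19939 genes. The median log2 fold change was 0.44 against 0.08 over all genes. Both lal-/- arrays read above both lal+/+ arrays in 35 members, beside 41.6% of all genes.

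**Figure D1:**
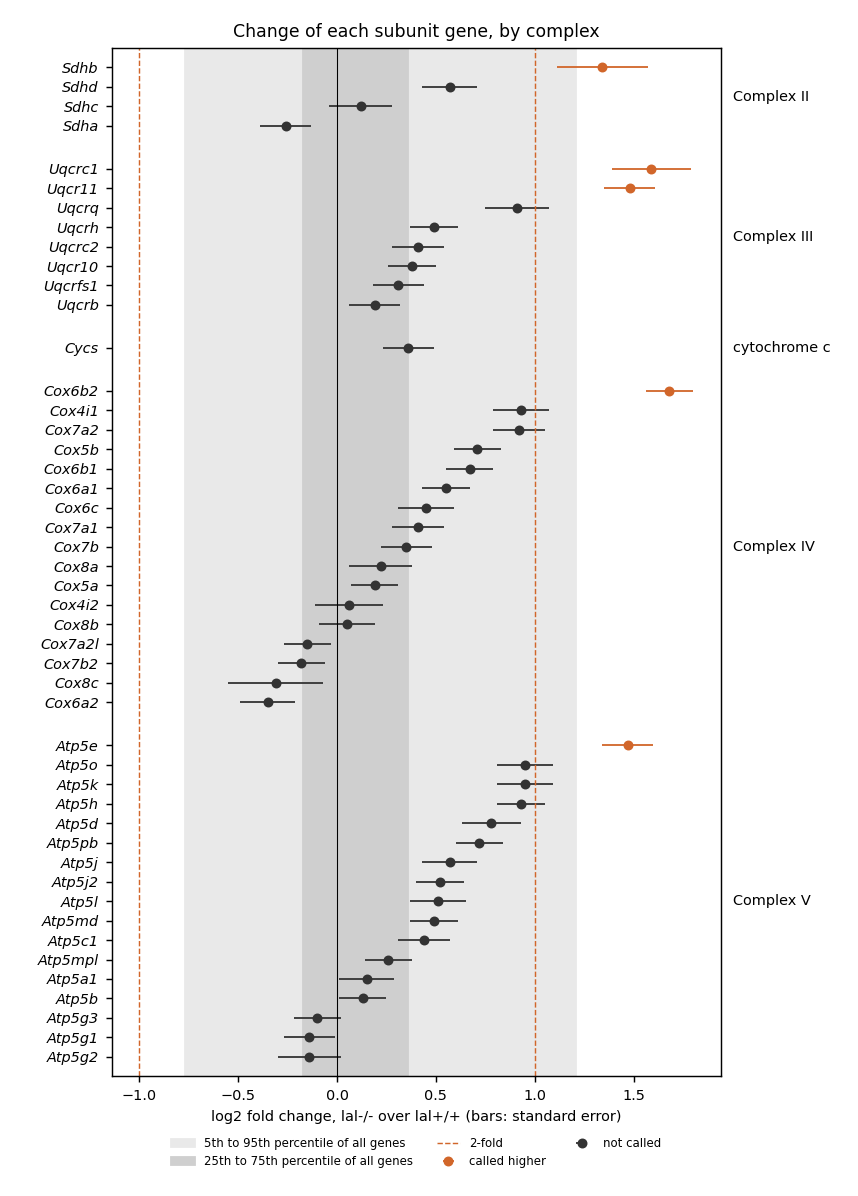
Log2 fold change of lal-/- over lal+/+ for each of the 47 genes by complex, with the standard error as bars, called genes in orange, the range of all genes in grey and dashed lines at 2-fold. Of the 47 points 39 lie to the right of 0, as do 11910 of all 19939 genes, and the 5 called genes lie between 1.34 and 1.68.

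The level of a gene goes with these counts. The 879 genes whose log2 level averaged at least 10 over the 4 arrays were fitted and adjusted by themselves, apart from the other genes. Of these, 16.2% were called higher and 56.3% passed the adjusted p alone in that direction, with a median of 0.28. Of the 26 subunit genes in this range, 1 was called higher, Atp5e, and 21 passed the adjusted p alone, with a median of 0.50. These counts belong to the separate fit and are not part of those from the fit over all genes, where fewer of the 26 passed. The difference was positive in 66.1% of the 879 genes and in 24 of the 26 subunit genes. Among genes at or above the median level, also fitted by themselves, 14.1% were called higher, and 5 of the 42 members there were. These counts describe the range of levels and were not tested.

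The scaling of the arrays set how many members passed. When the arrays were shifted to a common median, 16 of the 47 were called higher, beside 13.1% of all genes, and with the values as deposited 13 were, beside 10.1%. Without the fold threshold 37 members were higher with a common median, beside 26.7% of all genes, and 35 as deposited, beside 21.4%, in place of 23. The 5 genes called after quantile normalization were called under both, and no member was called lower under either. Quantile normalization made 70.0% of all calls higher ones, against 84.9% with a common median and 76.1% as deposited. The median of all genes was 0.08, 0.12 and -0.05 in that order, and the median of the members lay 0.36, 0.71 and 0.71 above it.

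**Figure D2:**
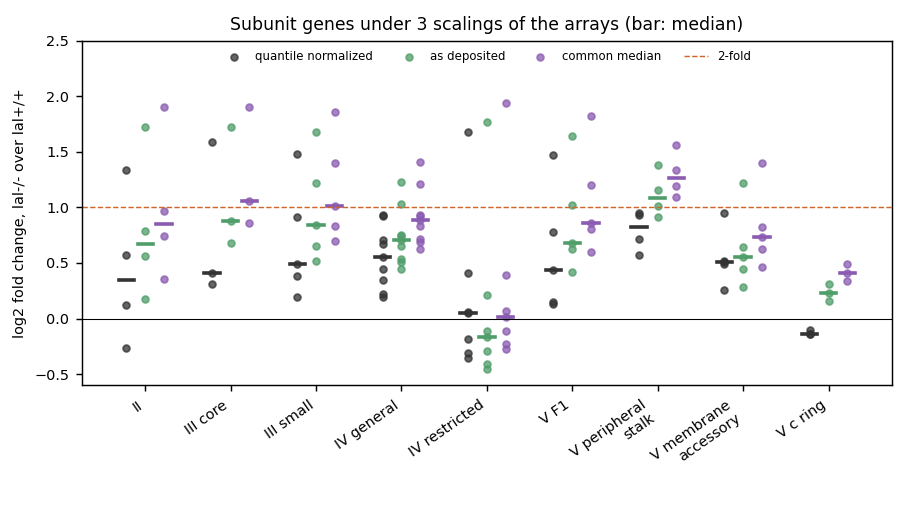
Log2 fold change of each subunit gene by complex and position under quantile normalization, the deposited values and a common median, with bars at the median of each class. The c ring genes lie below 0 after quantile normalization and above 0 under the other scalings, whereas the peripheral stalk genes lie above 0 under all 3.

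Complex II, succinate dehydrogenase, is also the enzyme of the citric acid cycle that oxidizes succinate. Its subunits differed in how they compared between genotypes. Sdhb, the iron-sulfur subunit, read 8.70 and 7.97 in lal+/+ MDSCs and 9.72 and 9.63 in lal-/- MDSCs, with a log2 fold change of 1.34 (SE 0.23, adjusted p = 0.00522). All lal-/- values of Sdhb were above all lal+/+ values, but the lal+/+ arrays lay 0.73 apart, and without lal+/+ replicate 2 the difference was 0.99 and Sdhb was not called. Sdhd, a membrane anchor, read 7.51 and 7.79 in lal+/+ and 8.24 and 8.20 in lal-/- cells, and its difference of 0.57 (adjusted p = 0.0215) passed the adjusted p but not the fold.

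The other membrane anchor, Sdhc, read 8.97 and 9.36 in lal+/+ MDSCs and 9.23 and 9.34 in lal-/- MDSCs. The genotypes overlapped for Sdhc (log2 fold change 0.12, adjusted p = 0.629). Sdha, the flavoprotein that binds succinate, read 9.41 and 9.43 in lal+/+ and 9.27 and 9.06 in lal-/- cells. Both lal-/- values of Sdha were below both lal+/+ values, yet the difference of -0.26 (adjusted p = 0.192) did not pass and was positive with a common median (0.36) and as deposited (0.18). Sdhaf1, which helps to insert iron-sulfur clusters into Sdhb, read 9.97 and 9.94 in lal+/+ and 8.98 and 8.84 in lal-/- cells and was called lower, at -1.04 (adjusted p = 0.00109). It was not called with a common median (-0.41), as deposited (-0.59) or without lal-/- replicate 2 (-0.96).

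Sequence matches for known regulators of mitochondrial genes were marked in promoters, without a test of binding. Shown are the promoters of the 5 called genes and of Cox6b1, the widely used partner of Cox6b2. Each runs from 250 bases before to 50 bases after the transcription start in RefSeq (GRCm38.p6), 5′ to 3′ on the strand of the gene. Capitals mark matches on either strand to GCATGCG (nuclear respiratory factor, NRF1), CCGGAAG (ETS factors and GABP), AAGATGG (YY1) or GGGCGGG (SP and KLF factors).
Sdhb, chr4:140961021-140961320, plus strand: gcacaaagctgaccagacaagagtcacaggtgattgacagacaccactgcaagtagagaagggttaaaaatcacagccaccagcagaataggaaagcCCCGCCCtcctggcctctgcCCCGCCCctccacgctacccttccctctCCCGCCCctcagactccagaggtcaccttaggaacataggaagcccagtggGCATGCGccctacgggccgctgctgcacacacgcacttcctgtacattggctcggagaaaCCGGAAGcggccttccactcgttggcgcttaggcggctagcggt
Uqcrc1, chr9:108936398-108936697, plus strand: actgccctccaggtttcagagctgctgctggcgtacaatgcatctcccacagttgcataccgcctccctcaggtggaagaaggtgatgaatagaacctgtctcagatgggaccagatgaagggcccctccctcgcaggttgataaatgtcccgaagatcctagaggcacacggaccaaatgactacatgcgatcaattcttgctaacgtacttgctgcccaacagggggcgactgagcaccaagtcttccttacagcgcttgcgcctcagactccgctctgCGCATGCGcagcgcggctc
Uqcr11, chr10:80406772-80407071, minus strand: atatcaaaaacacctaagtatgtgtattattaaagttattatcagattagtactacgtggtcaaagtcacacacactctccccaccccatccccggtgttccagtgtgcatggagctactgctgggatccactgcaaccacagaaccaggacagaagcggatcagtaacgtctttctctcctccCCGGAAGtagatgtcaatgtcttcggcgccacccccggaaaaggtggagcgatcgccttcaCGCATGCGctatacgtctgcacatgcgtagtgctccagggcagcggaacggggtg
Cox6b2, chr7:4753045-4753344, minus strand: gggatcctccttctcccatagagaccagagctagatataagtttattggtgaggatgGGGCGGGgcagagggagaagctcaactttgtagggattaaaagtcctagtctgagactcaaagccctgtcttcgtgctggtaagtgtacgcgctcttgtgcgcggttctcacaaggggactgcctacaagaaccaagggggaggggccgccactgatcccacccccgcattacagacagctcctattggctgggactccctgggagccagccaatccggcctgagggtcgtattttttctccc
Cox6b1, chr7:30626065-30626364, minus strand: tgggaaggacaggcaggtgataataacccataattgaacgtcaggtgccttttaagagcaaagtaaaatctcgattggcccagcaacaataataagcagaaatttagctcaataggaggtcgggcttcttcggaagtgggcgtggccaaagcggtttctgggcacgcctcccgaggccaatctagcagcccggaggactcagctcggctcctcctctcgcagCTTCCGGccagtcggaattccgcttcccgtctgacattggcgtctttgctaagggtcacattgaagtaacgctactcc
Atp5e, chr2:174464052-174464351, minus strand: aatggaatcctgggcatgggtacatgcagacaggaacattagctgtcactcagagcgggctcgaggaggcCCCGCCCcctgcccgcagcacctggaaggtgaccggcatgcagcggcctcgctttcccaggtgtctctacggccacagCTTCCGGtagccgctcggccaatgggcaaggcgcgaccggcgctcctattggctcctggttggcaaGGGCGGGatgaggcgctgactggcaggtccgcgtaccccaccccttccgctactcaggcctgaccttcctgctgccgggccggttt

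RefSeq promoters were matched for 36 of the 47 genes, 39 promoters in all. The NRF1 letters stood in 23.1% of these, against 3.58% of all 32851 promoters and 4.78% of the 19116 promoters of genes on the array. The ETS and GABP letters stood in 33.3%, against 8.86% and 12.1%. For the YY1 letters the share was 7.69%, against 6.34% and 6.23%, and for the SP and KLF letters 30.8%, against 25.6% and 36.2%. The NRF1 letters overlap their own reverse complement, so that 1 stretch in Uqcrc1 and 1 in Uqcr11 matched on both strands, and no ETS match overlapped a YY1 match. Among the called genes the NRF1 letters were found in Sdhb, Uqcrc1 and Uqcr11, and the promoter of Cox6b2 held only an SP and KLF match. The NRF1 letters also stood in promoters of Cycs, Cox6a1, Atp5j, Atp5k, Atp5l and Atp5g2, which were not called. A match describes letters in the window and was not tested against binding.

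Complex III takes electrons from ubiquinol and passes them to cytochrome c. All 8 of its measured subunit genes had a positive difference with no overlap between genotypes, beside 41.6% of all genes with both lal-/- arrays higher. Of the 8, 2 were called higher, beside 7.56% of all genes, and 4 were higher by the adjusted p alone, beside 19.8%. Their median was 0.45. Uqcrc1, a large core protein on the matrix side, read 7.20 and 6.64 in lal+/+ MDSCs and 8.59 and 8.42 in lal-/- MDSCs, with a log2 fold change of 1.59 (SE 0.20, adjusted p = 0.00131). The lowest lal-/- array stood well above the highest lal+/+ array for Uqcrc1. Uqcr11, a small subunit, read 7.32 and 7.16 in lal+/+ and 8.77 and 8.68 in lal-/- cells, with a log2 fold change of 1.48 (SE 0.13, adjusted p = 3.05e-04). Its arrays kept close within each genotype, although a second Uqcr11 probe set gave 0.93 (adjusted p = 0.00569) and did not reach the fold.

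Uqcrq, another small subunit, had a difference of 0.91 (adjusted p = 0.00624), with 10.91 and 10.49 in lal+/+ and 11.60 and 11.62 in lal-/- cells. Uqcrh, the hinge protein, whose probe set read highest in complex III, gave 11.93 and 11.96 in lal+/+ and 12.47 and 12.41 in lal-/- cells (0.49, adjusted p = 0.0209). In neither gene did the genotypes overlap. The differences of Uqcrc2 (0.41), Uqcr10 (0.38), the Rieske iron-sulfur protein Uqcrfs1 (0.31) and Uqcrb (0.19) did not pass after quantile normalization, and the 3 probe sets of Uqcrb ranged from -0.20 to 0.32. With a common median Uqcrc2 (1.06) and Uqcr10 (1.01) were called higher, while Uqcrfs1 (0.86) and Uqcrb (0.83) passed the adjusted p. As deposited all of them passed the adjusted p, at 0.65 to 0.88, without reaching the fold. Cyc1, the cytochrome subunit of complex III that passes electrons on, is outside the 47 genes and read 8.65 and 8.48 in lal+/+ and 9.43 and 9.43 in lal-/- cells, a difference of 0.86 (adjusted p = 0.00260). It passed the adjusted p but not the fold, and was called higher with a common median (1.44) and as deposited (1.26).

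Cycs, the soluble electron carrier, read 11.10 and 10.95 in lal+/+ MDSCs and 11.40 and 11.37 in lal-/- MDSCs. The genotypes did not overlap, but the difference of 0.36 (SE 0.13, adjusted p = 0.0721) did not pass the test after quantile normalization. It passed the adjusted p, but not the fold, with a common median (0.86, adjusted p = 0.00170), as deposited (0.68, adjusted p = 0.00675) and with its probe sets averaged (0.47, adjusted p = 0.0344).

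**Figure D3:**
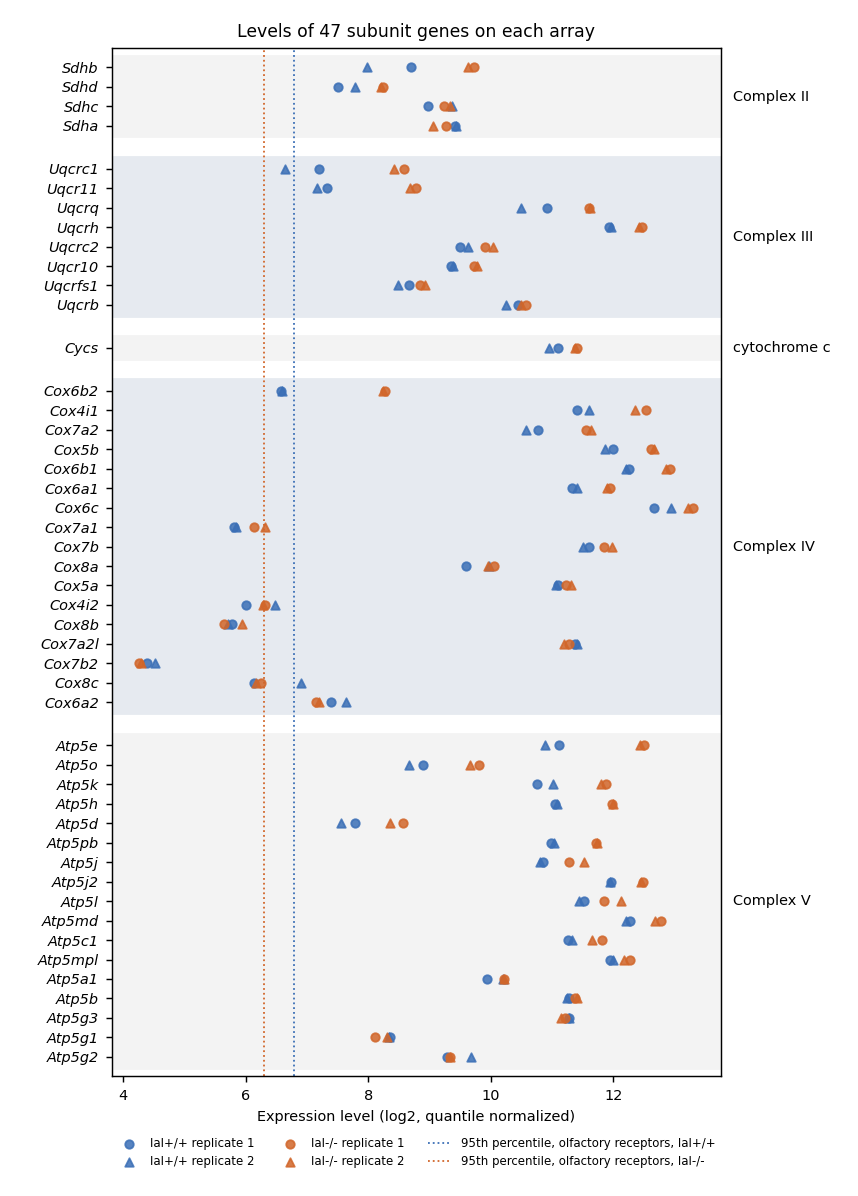
Log2 level of each of the 47 genes on the 4 arrays, grouped by complex, with dotted lines at the 95th percentile of olfactory receptor probe sets in each genotype. All 8 complex III genes have both lal-/- arrays to the right of both lal+/+ arrays, as do 41.6% of all genes tested. The means of 4 genes of complex IV lie left of the dotted lines in both genotypes.

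Complex IV, cytochrome c oxidase, reduces oxygen. Of its 17 genes 1 was called higher, Cox6b2, beside 7.56% of all genes. By the adjusted p alone 6 of the 17 were higher, beside 19.8% of all genes, and the median was 0.35. The 9 widely used nuclear subunits all had a positive difference, beside 11910 of all 19939 genes and 66.1% of genes at a log2 level of at least 10. Their median was 0.55 with a range of 0.19 to 0.93, and 5 of them passed the adjusted p. These were Cox4i1, Cox7a2, Cox5b, Cox6b1 and Cox6a1. The 7 isoforms known from muscle, lung or testis had a median of 0.05, with 1 called, and the median was 0.01 with a common median of the arrays and -0.17 as deposited. Of these 7 isoforms, 4 read on average below the level of silent genes, described next, in both genotypes. Whether the widely used subunits and the restricted isoforms differed was not tested.

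Probe sets of olfactory receptor genes, which these cells are not known to use, gave a level for silent genes, whose 95th percentile was 6.79 in lal+/+ and 6.29 in lal-/- cells. Cox6b2, the testis isoform of a subunit on the intermembrane side, read 6.57 and 6.59 in lal+/+ cells, below that level, and 8.28 and 8.24 in lal-/- cells, above it. Against the silent level Cox6b2 was at least 2.78-fold higher in lal-/- cells, and the fitted log2 fold change of 1.68 (SE 0.12, adjusted p = 1.66e-04) is set against a lal+/+ reading within that range. Cox6b1, its widely used partner, read 12.25 and 12.20 in lal+/+ and 12.92 and 12.86 in lal-/- cells, a difference of 0.67 (adjusted p = 0.00608) with no overlap. The Cox6b2 signal rests on 1 probe set, and its locus overlaps no other gene in RefSeq. Loci of 15 of the 47 genes do overlap another gene there, none of them among the 5 called genes.

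Cox4i1, a core structural subunit, read 11.41 and 11.60 in lal+/+ and 12.53 and 12.35 in lal-/- cells, a difference of 0.93 (adjusted p = 0.00268) with no overlap. Its lung isoform Cox4i2 read 6.0 and 6.47 in lal+/+ and 6.31 and 6.28 in lal-/- cells. Those arrays overlapped, and the difference of 0.06 (adjusted p = 0.835) turned negative as deposited (-0.11). Cox7a2 read 10.77 and 10.57 in lal+/+ and 11.55 and 11.63 in lal-/- cells, a difference of 0.92 (adjusted p = 0.00233) with no overlap. Its muscle isoform Cox7a1 read 5.80 and 5.84 in lal+/+ and 6.13 and 6.32 in lal-/- cells. Although the genotypes did not overlap for Cox7a1 (0.41, adjusted p = 0.0557), its mean was below the silent level in both. Cox7a2l, a related protein that joins complexes III and IV into supercomplexes, read 11.37 and 11.40 in lal+/+ and 11.27 and 11.20 in lal-/- cells. Its difference of -0.15 (adjusted p = 0.406) did not pass and was positive with a common median (0.32) and as deposited (0.14).

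**Figure D4:**
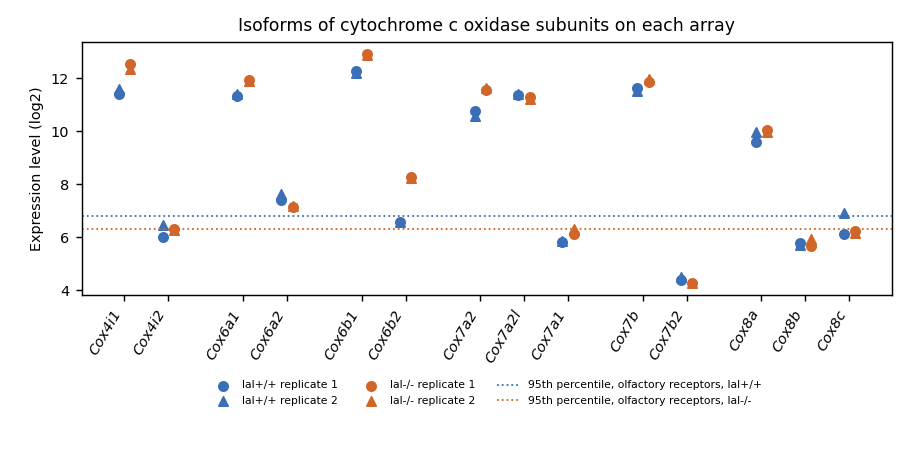
Log2 level of widely used and tissue-restricted isoforms of complex IV subunits on each array, with the 95th percentile of olfactory receptor probe sets as dotted lines. Cox6b2 lies below the lal+/+ line on both lal+/+ arrays and above the lal-/- line on both lal-/- arrays, while levels of different genes are not comparable between probe sets.

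Among the remaining isoform families no gene reached the fold. Cox6a1 read 11.32 and 11.40 in lal+/+ and 11.94 and 11.89 in lal-/- cells, a difference of 0.55 (adjusted p = 0.0139), with both lal-/- arrays higher. Cox6a2, its muscle isoform, read 7.39 and 7.63 in lal+/+ and 7.14 and 7.19 in lal-/- cells (-0.35, adjusted p = 0.0980), and its locus overlaps Itgad in RefSeq. Both lal-/- arrays were lower for Cox6a2, without passing the adjusted test. Cox8a read 9.59 and 9.97 in lal+/+ and 10.05 and 9.96 in lal-/- cells, which overlapped (0.22, adjusted p = 0.341). Cox8b read 5.77 and 5.71 in lal+/+ and 5.65 and 5.94 in lal-/- cells, and Cox8c read 6.13 and 6.90 in lal+/+ and 6.24 and 6.17 in lal-/- cells. Both of these overlapped and lay below the silent level on average in both genotypes. Cox7b had a difference of 0.35 (adjusted p = 0.0778), with 11.61 and 11.50 in lal+/+ and 11.85 and 11.97 in lal-/- cells, whereas Cox7b2, its testis isoform, read 4.39 and 4.51 in lal+/+ and 4.26 and 4.29 in lal-/- cells (-0.18, adjusted p = 0.325). Neither passed the test.

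Of the other widely used subunits, Cox5b, which binds zinc, had a difference of 0.71 (adjusted p = 0.00512) and Cox5a one of 0.19 (adjusted p = 0.284). Cox6c, whose probe set read highest in complex IV, gave 12.67 and 12.94 in lal+/+ and 13.30 and 13.21 in lal-/- cells. Its genotypes did not overlap, and its difference of 0.45 (adjusted p = 0.0522) missed the threshold, whereas its second probe set gave 0.64 (adjusted p = 0.00676) and passed the adjusted p. The second probe set of Cox7b also passed it, at 0.43 (adjusted p = 0.0401). The 3 probe sets that name Cox7c and Gm12338 together had differences of 0.26 to 0.30 and did not pass either. Ndufa4, a protein now assigned to complex IV, had a difference of 0.06 (adjusted p = 0.748).

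Complex V has a catalytic head and a turning central stalk on the matrix side, a c ring in the membrane, a peripheral stalk that holds the head in place, and accessory membrane subunits. Of its 17 genes 1 was called higher, Atp5e, beside 7.56% of all genes. By the adjusted p alone 11 of the 17 were higher, beside 19.8% of all genes, and the median was 0.51. Among genes at a log2 level of at least 10, fitted by themselves, 56.3% were higher by the adjusted p. That share comes from another fit, without the complex V genes that read below this level, so it is not directly comparable. Atp5e, the epsilon subunit of the central stalk, read 11.11 and 10.89 in lal+/+ MDSCs and 12.50 and 12.44 in lal-/- MDSCs, with a log2 fold change of 1.47 (SE 0.13, adjusted p = 3.63e-04). The lal-/- arrays stood together, far above both lal+/+ arrays. The delta subunit Atp5d (0.78, adjusted p = 0.00722) and the gamma subunit Atp5c1 (0.44, adjusted p = 0.0384) passed the adjusted p, whereas the alpha subunit Atp5a1 (0.15, adjusted p = 0.451) and the catalytic beta subunit Atp5b (0.13, adjusted p = 0.466) did not. Atp5b read 11.27 and 11.24 in lal+/+ and 11.37 and 11.40 in lal-/- cells.

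All 4 peripheral stalk genes were higher by the adjusted p alone, beside 19.8% of all genes. Their differences ran from 0.57 to 0.95, with a median of 0.82, and none reached the fold after quantile normalization. Atp5o, which ties the stalk to the head, read 8.89 and 8.66 in lal+/+ and 9.80 and 9.66 in lal-/- cells, a difference of 0.95 (adjusted p = 0.00243). Atp5h, subunit d, read 11.04 and 11.08 in lal+/+ and 11.98 and 11.99 in lal-/- cells, a difference of 0.93 (adjusted p = 0.00146), and its 2 other probe sets each gave 1.0. Atp5pb, subunit b, read 10.98 and 11.03 in lal+/+ and 11.72 and 11.74 in lal-/- cells (0.72, adjusted p = 0.00423), but its second probe set gave 0.14. The genotypes overlapped in none of these genes, beside 41.6% of all genes with both lal-/- arrays higher. With a common median all 4 were called higher, beside 13.1% of all genes, Atp5j (0.57 after quantile normalization) among them. As deposited 3 were, beside 10.1%.

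The c ring turns as protons pass, and 3 genes, Atp5g1, Atp5g2 and Atp5g3, encode the same mature protein. Their median was -0.14 after quantile normalization, but 0.41 with a common median and 0.23 as deposited, so that their direction turned with the scaling, and none was called under any of the 3. Atp5g1 read 8.35 and 8.34 in lal+/+ and 8.11 and 8.30 in lal-/- cells (adjusted p = 0.456). Atp5g2 read 9.28 and 9.68 in lal+/+ and 9.34 and 9.33 in lal-/- cells (adjusted p = 0.555). Atp5g3 read 11.28 and 11.27 in lal+/+ and 11.21 and 11.14 in lal-/- cells (adjusted p = 0.579). The genotypes overlapped for Atp5g2 and lay close together for the other two. The peripheral stalk lay above the c ring under each scaling, with medians of 0.82, 1.26 and 1.08 against -0.14, 0.41 and 0.23 for quantile normalization, a common median and the deposited values. The difference between these classes was not tested.

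The 5 accessory membrane subunits had differences of 0.26 to 0.95, and 4 of them were higher by the adjusted p, beside 19.8% of all genes. Atp5k, subunit e, which is known for helping ATP synthase to pair into dimers, read 10.76 and 11.01 in lal+/+ and 11.88 and 11.79 in lal-/- cells, a difference of 0.95 (adjusted p = 0.00243) with no overlap. Atp5j2 had a difference of 0.52, Atp5l one of 0.51 and Atp5mpl, which did not pass, one of 0.26. The 6 probe sets of Atp5l gave 0.36 to 0.60. Atp5md, whose probe set read highest in complex V, gave 12.27 and 12.21 in lal+/+ and 12.77 and 12.68 in lal-/- cells. These did not overlap (0.49, adjusted p = 0.0239), but the other probe sets of Atp5md gave 0.22 and -0.04. Atpif1, the inhibitor that stops ATP synthase from running backwards, had a difference of 0.30 (adjusted p = 0.101).

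Genes that build the complexes or work beside them were read from lists, of which 34 of 38 assembly factors were measured. Of these 34, 5 were called higher, beside 7.56% of all genes and 14.1% of genes at or above the median level, fitted by themselves. In the other direction 1 was called lower, Sdhaf1, beside 3.24% of all genes. By the adjusted p alone 17 were higher, beside 19.8%, and 5 lower, beside 9.85%, with a median of 0.41. The highest were Bcs1l (1.49), which inserts the Rieske protein into complex III, the complex IV factors Cox19 (1.36), Surf1 (1.15) and Coa6 (1.05), and Fmc1 (1.12), a factor of complex V. Bcs1l read 6.63 and 5.98 in lal+/+ and 7.80 and 7.78 in lal-/- cells (adjusted p = 0.00228). Its lal+/+ values were below the silent level, as were those of Cox19, Fmc1 and Coa6, and against that level Bcs1l was at least 2.0-fold, Cox19 at least 2.17-fold, Fmc1 at least 1.80-fold and Coa6 at least 1.45-fold higher. Fmc1 was not called without lal+/+ replicate 2 (0.92) or without lal-/- replicate 2 (0.91). Coa6 was not called as deposited (0.98) or without lal-/- replicate 1 (0.96).

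**Figure D5:**
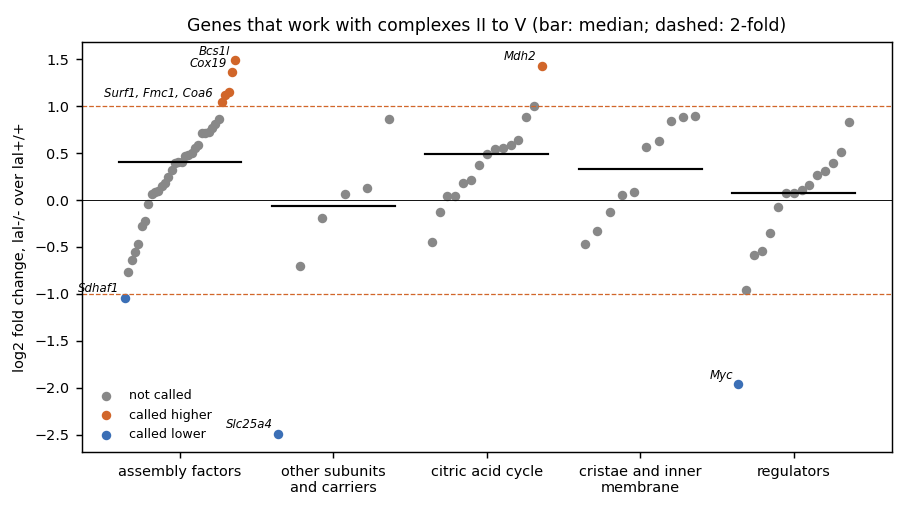
Log2 fold change of lal-/- over lal+/+ for genes that work with the complexes, by list, with bars at the median of each list and dashed lines at 2-fold. Slc25a4 lies lowest at -2.49, while 5 assembly factors and Mdh2 lie above the upper dashed line.

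Slc25a4, a carrier that exchanges ATP for ADP across the inner membrane, read 9.03 and 8.89 in lal+/+ MDSCs and 6.63 and 6.31 in lal-/- MDSCs. The lal-/- arrays were near the silent level, and the log2 fold change of -2.49 (SE 0.15, adjusted p = 1.01e-04) was called lower under all 3 scalings. Slc25a5, a second carrier for ATP and ADP, read 11.06 and 11.04 in lal+/+ and 10.83 and 10.88 in lal-/- cells. Its difference of -0.19 (adjusted p = 0.269) did not pass. Of 6 measured genes listed as other subunits and partners, 1 was called lower, Slc25a4, beside 3.24% of all genes. Slc25a3, which brings in phosphate for ATP synthase, had a difference of -0.70 (adjusted p = 0.00512), which was -0.05 with a common median and -0.23 as deposited.

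In the citric acid cycle, which feeds complex II, 1 of 15 measured genes was called higher, beside 7.56% of all genes, and 0 lower. The median was 0.49, and by the adjusted p alone 7 were higher and 1 lower, beside 19.8% and 9.85% of all genes. The called gene was Mdh2, malate dehydrogenase, which read 9.88 and 9.64 in lal+/+ and 11.19 and 11.18 in lal-/- cells (1.43, adjusted p = 4.36e-04). Of 10 measured genes that shape the inner membrane 0 were called by limma. By the adjusted p alone 5 were higher, beside 19.8% of all genes, with Micos13 at 0.90 and Micos10 at 0.89. Of 15 regulators of mitochondrial gene expression 1 was called lower and 0 higher, beside 3.24% and 7.56% of all genes, with a median of 0.08. Myc, a factor that promotes growth, read 9.30 and 9.12 in lal+/+ and 7.11 and 7.40 in lal-/- cells (-1.96, adjusted p = 2.07e-04). Tfam, which packages mitochondrial DNA and starts its transcription, read 8.19 and 8.09 in lal+/+ and 7.18 and 7.16 in lal-/- cells, and its difference of -0.96 (adjusted p = 0.00135) did not reach the fold, except without lal+/+ replicate 2 (-1.07). In both genes the genotypes did not overlap. The factors named for the motifs above had differences of 0.51 for Nrf1, 0.83 for Gabpb1, 0.40 for Gabpa and 0.27 for Yy1, and Nrf1 (adjusted p = 0.0327) and Gabpb1 (adjusted p = 0.0386) passed the adjusted p. With a common median Gabpa (1.04) and Gabpb1 (1.03) were called higher. Leaving out 1 array moved Gabpb1 from 0.48 without lal+/+ replicate 2 to 1.24, which was called, without lal+/+ replicate 1, and it did not pass the adjusted p without either lal-/- array. Nrf1 passed the adjusted p in only 1 of those 4 settings, without lal+/+ replicate 1. Transcripts encoded in mitochondrial DNA were not analysed here.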

How the data were processed

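The authors normalized the scans by RMA (robust multi-array average) in Partek Genomics Suite, and the deposited log2 values cover 35557 probe sets. The labels name GCOS 1.1 and NuGEN labelling reagents, whereas the methods name an Affymetrix kit. The gene table lists 21789 probe sets with 1 gene and 1621 with several, which were not tested, and 12147 are unlisted. The deposited array medians ranged from 6.15 to 6.36, so the arrays were quantile normalized. limma 3.58.1 in R 4.3.3 fitted genotype alone, with 4.83 prior and 2 residual degrees of freedom. The tissue term of the methods could not be fitted to 1 tissue. Of the probe sets with 1 gene 40.9% had an unadjusted p under 0.05. Promoters were scanned in Python 3.11.15. The number of arrays limits the precision. Members, gene lists and thresholds were chosen with earlier results of these data known. All members could be named, and values of every array were printed for called genes, complex II, Cycs, isoform families and the highest probe set of each complex. Further per-array values (Uqcrq, Atp5b, Atp5o, Atp5h, Atp5pb, Atp5k) and partner genes below the fold were chosen after their values were seen. The alternatives were other scalings, filters, variance models, thresholds, blocks, probe set rules and each array left out. The fit was tested on simulated data, but the outcome is not given here and lends no weight to the p-values.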

Additional observations from a re-analysis of the deposited data

How the results depend on the processing

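The direction of most members held under the alternatives, but the number called did not. In place of 5 members called higher, and 1, 2, 1 and 1 in complexes II, III, IV and V, a common median gave 16 (complexes III, IV and V: 5, 3 and 7) and the deposited values gave 13 (complexes IV and V: 3 and 6), with medians of 0.83 and 0.65 in place of 0.44. Without the fold threshold 23 were called (2, 4, 6 and 11 in complexes II to V). The ordinary linear model, which has no moderated variance, called 0 members in all and 0 in each complex. It also called 0 of all genes tested higher and 0 lower, so these counts do not set the members apart. In that model 25 members had an unadjusted p under 0.05, and the share of all genes at that p is not given here. A filter at a log2 level of 10, chosen after seeing the data, kept 26 members and called 1 (0 in complexes II, III and IV), since the other called genes read below it. Leaving out 1 array gave 5 to 8 members, with 0 to 1 in complex II, 1 to 2 in complex IV and 1 to 3 in complex V. Without lal+/+ replicate 2 Sdhb was lost and Atp5k gained, without lal+/+ replicate 1 Uqcrq and Atp5o were gained, and without lal-/- replicate 2 the count was 8, with Atp5o, Atp5k and Cox4i1 gained. The cause of these moves was not tested.

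The sign turned in 9 members, none of them called. With a common median and as deposited in turn, the differences were 0.36 and 0.18 for Sdha, 0.32 and 0.14 for Cox7a2l, 0.34 and 0.16 for Atp5g1, 0.49 and 0.31 for Atp5g2, and 0.41 and 0.23 for Atp5g3. As deposited Cox4i2 was at -0.11 and Cox8b at -0.17. Over the settings that leave out 1 array, Sdhc ranged from -0.08 to 0.33, Cox4i2 from -0.18 to 0.30, Cox8b from -0.09 to 0.19, Cox8c from -0.70 to 0.08 and Atp5g2 from -0.34 to 0.06.

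Arrays with the same replicate number share only that number, and their deviations from the genotype means correlated at -0.18. With the replicate number as a block 5 members were called higher, and the crossed pairing, added after seeing the data, also called 5. The same 5 genes were called with a filter at the median level, with all probe sets adjusted, with an intensity trend, at an adjusted p under 0.01, with probe sets averaged per gene and by the symbols of the table alone. Genes near the silent level in both genotypes have only small measurable differences, and 4 members read below it in both.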
